A study of Mus musculus with 18 samples.

Results

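Chemokines are small secreted proteins that draw leukocytes along a gradient by binding G protein-coupled receptors on the cell surface. They fall into CC, CXC, CX3C and XC classes by the spacing of conserved cysteines, and their ligands are commonly divided into inflammatory ligands, which damaged or stimulated cells release, and homeostatic ligands, which hold resident lymphocytes in place. In liver, hepatocytes, Kupffer cells (the resident macrophages), sinusoidal endothelium and stellate cells can each produce them. All mouse genes whose symbol is Ccl or Cxcl followed by a number, with Cx3cl1 and Xcl1, were taken as the family, without regard to any measured value. The mouse RefSeq gene table holds 44 such symbols, and 34 of these genes had at least 1 probe on the array, with 41 probes in all, of 21153 named genes.

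The livers came from male C57BL/6 mice that were given a diet with 10% fat (LFD) or 60% fat (HFD) from 6 weeks of age, after which some received methotrexate, an inhibitor of folate metabolism used as chemotherapy. Treated mice had 10 weeks of diet and then 5 rounds of methotrexate at 50 mg/kg into the peritoneum (MTX50), and their livers were collected 1 week after the last round. Untreated mice gave 4 LFD and 4 HFD livers and treated mice 5 LFD-MTX50 and 5 HFD-MTX50 livers, with 1 array for each mouse, and the labels name no transgene or deletion. Whether the untreated mice received a sham injection was not given in the sources used here. All 5 hepatocyte markers examined (Alb, Apoa1, Ttr, Hnf4a and Cyp2e1) were well above background on all 18 arrays.

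Levels are given as log2 of the processed spot intensity minus the 75th percentile of that array, so that a level of 0 equals the 75th percentile and a difference of 1 between groups is a change of 2-fold. Depth in an array is set by brightness over background, and from 83.9% to 90.6% of probes were well above background per array. The median correlation of an array with the other arrays of its group was between 0.9781 and 0.9932 over the kept probes. The LFD livers shared slide 1, the LFD-MTX50 livers lay on slides 2 and 3, and only slide 5 held both HFD and HFD-MTX50 arrays, 2 of each. For every comparison that includes LFD or LFD-MTX50, slide and group therefore cannot be told apart. In these bulk livers fewer cells of a type and less RNA per cell cannot be told apart either.

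Of the 34 ligand genes, 22 were above background on all 18 arrays. Ccl28 and Ccl3 were above it on 17 arrays, Cx3cl1 on 14, Ccl1 on 9, and Ccl7 and Xcl1 on 6 each. Ccl1, which binds CCR8, was above background on all 4 HFD arrays but on 1 LFD, 2 LFD-MTX50 and 2 HFD-MTX50 arrays. Ccl7, a ligand of the monocyte receptor CCR2, was above background on none of the 4 LFD arrays and on 2 arrays of each other group. The remaining 6 genes did not reach the required 4 arrays and were not tested. Ccl11, Ccl20, Ccl22 and Cxcl3 were not well above background on any array, Cxcl2 was above it on 1 HFD-MTX50 array, and Ccl26 on 1 LFD-MTX50 and 1 HFD-MTX50 array. The tests below thus refer to 28 of the 34 members.

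**Figure D1:**
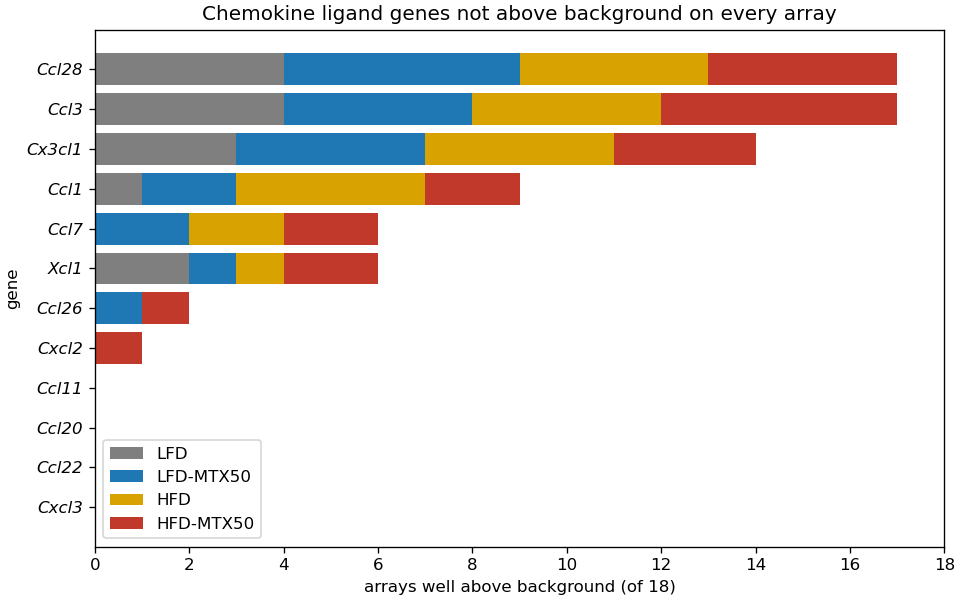
Stacked bars of the number of arrays (of 18) on which each chemokine ligand gene was well above background, coloured by group, for the genes that were not above it on every array. Ccl1 has 4 HFD arrays but 1 LFD array, Ccl7 has no LFD array, and Ccl11, Ccl20, Ccl22 and Cxcl3 have no bar.

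The first question was how diet changed the ligands in mice without chemotherapy. Ccl1, Ccl8, Ccl12, Ccl28 and Cxcl15 rose in HFD against LFD livers, and Cxcl13 and Ccl27a fell. That is 5 of 28 tested members higher (17.9%) and 2 lower (7.14%), beside 18% higher and 10.4% lower among all 19597 named genes tested. The median log2 difference was 0.15 over the members and 0.08 over all genes. The shares of the family were thus close to those of the whole array, and the number of calls does not set the family apart.

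The second question was what methotrexate changed on each diet. In the HFD livers Cxcl1, Ccl6 and Cxcl13 rose, 3 of 28 members beside 4.83% of all genes. No member passed as lower by limma (0 of 28 beside 6.13% of all genes), 1 had an unadjusted p below 0.05 in that direction, and the methods' t-test with Benjamini-Hochberg adjustment called 0 in either direction. By that t-test the adjusted p of Cxcl1, Ccl6 and Cxcl13 was 0.106 to 0.141, and in a limma fit of the 2 groups alone it was 0.0713 to 0.0871. At the methods' own thresholds (unadjusted p up to 0.015 and 2-fold), Ccl6 and Cxcl13 passed by the t-test and Cxcl1 did not. In the LFD livers Cxcl1, Cxcl15, Ccl6, Ccl8, Ccl12 and Ccl17 rose, 6 of 28 members (21.4%) beside 17.6% of all genes. Cxcl9 alone fell there, 1 of 28 (3.57%) beside 10.5%. The member medians were 0.11 in the HFD and 0.23 in the LFD livers, against -0.04 and 0.10 over all genes.

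The effect of methotrexate differed between the diets for 4 members, Cxcl15, Ccl8, Ccl12 and Ccl17. Each rose in the LFD livers, while HFD-MTX50 minus HFD was -0.038, -0.38, -0.18 and -0.11 in that order, none of them called. These 4 ligands were 14.3% of the members, beside 18.1% of all genes with a lower effect in the HFD livers. For the opposite direction limma called 0 members beside 8.66% of all genes, and 1 member had an unadjusted p below 0.05. Among treated mice, HFD-MTX50 livers had more Cxcl5 (1 of 28, 3.57%, beside 7.37% of all genes) and less Ccl17 (1 of 28, 3.57%, beside 8.75%) than LFD-MTX50 livers. These 5 comparisons share groups, so that a low LFD value enters 3 of them.

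**Figure D2:**
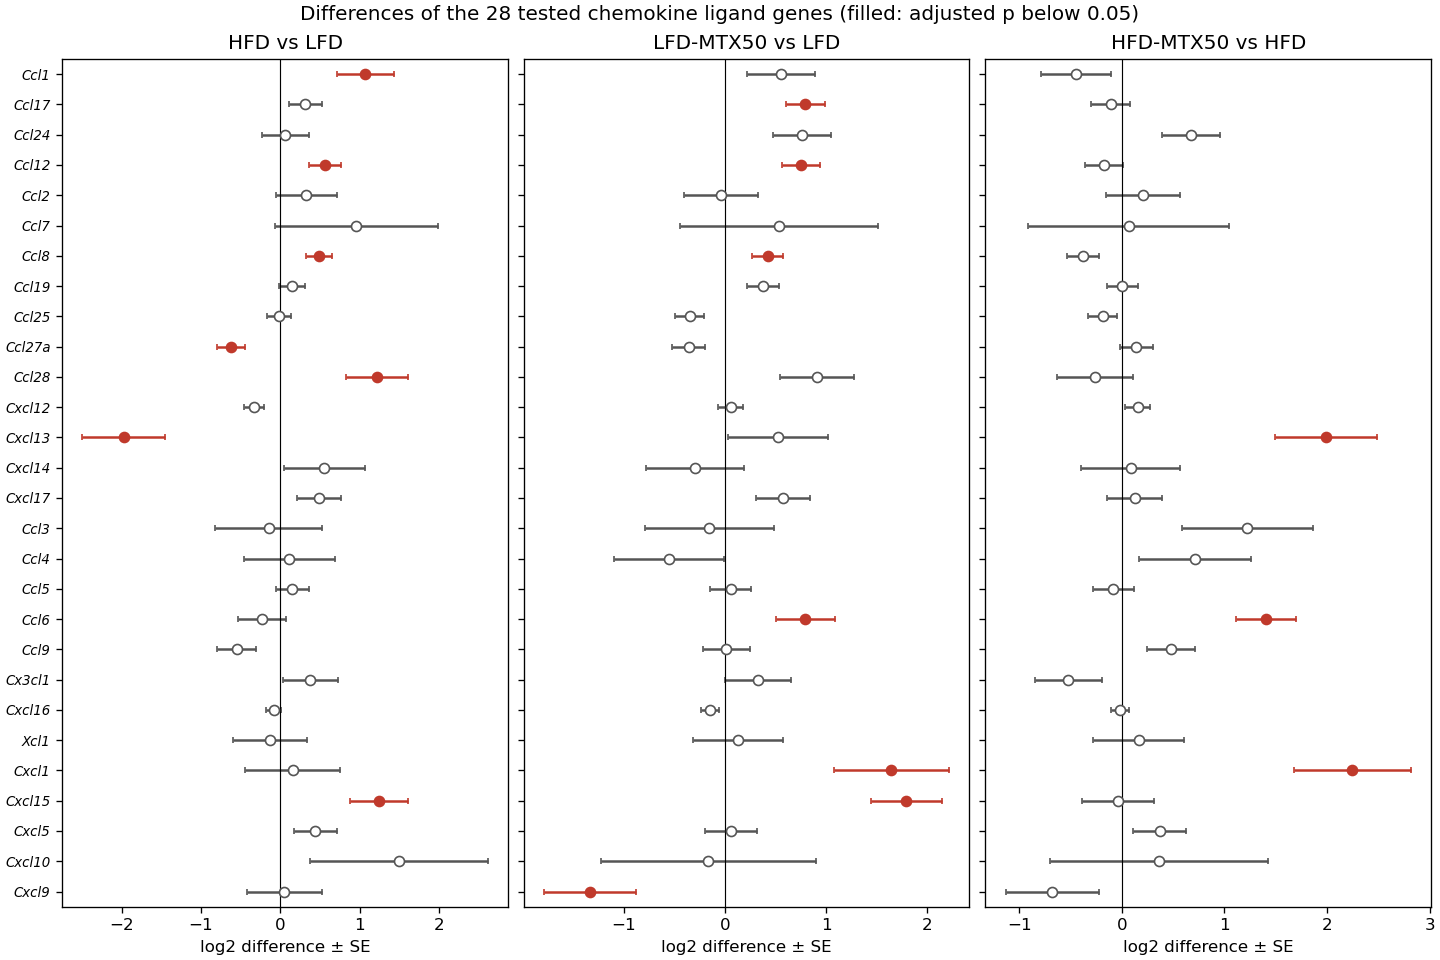
Log2 differences of the 28 tested chemokine ligands in HFD against LFD and with methotrexate on each diet, with error bars of 1 standard error from the limma model and filled points for adjusted p below 0.05. The largest called difference in either methotrexate comparison is that of Cxcl1 in HFD-MTX50 against HFD (2.25), and the lowest called difference between diets is that of Cxcl13 (-1.97).

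Slide bears on all of these calls. With slide as a random block (correlation 0.262), the 3 members that rose in HFD-MTX50 against HFD kept adjusted p values from 0.0107 to 0.0414, but with slide as a fixed block none did (0.0605 to 0.248, 5 higher and 2 lower at an unadjusted p below 0.05). The 7 HFD against LFD calls were lost (0.0704 to 0.198), as were the 7 of LFD-MTX50 against LFD (0.0542 to 0.216), the 2 between treated groups (0.174 and 0.276) and the 4 differences between the effects (0.0649 to 0.097). Single libraries mattered as well. Without HFD mouse 4, 0 members passed in HFD-MTX50 against HFD by limma (adjusted p from 0.0537 to 0.0808, 3 higher at an unadjusted p below 0.05), and 1 passed in HFD against LFD. In every leave-one-out fit, the differences of the called members kept their direction.

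Promoters of ligands that moved together are shown next, as 300 bases (250 before the transcript start and 50 after it) in the direction of the gene, from RefSeq on build GRCm38.p6. Windows were at hand for 24 of the 34 members. Motifs were searched on both strands, namely a 10-letter NF-κB site, TTCNNNGAA (the GAS site of STAT factors), the core of the interferon-stimulated response element (GAAA, any 2 bases, GAAA) and TATAAA (the letters of the TATA box). A match was counted at any position in the window. In the sequences, capitals mark any such match. The first set holds the 3 ligands that rose in HFD-MTX50 against HFD livers. They are Cxcl1 at chr5:90890995-90891294 on the plus strand, Ccl6 at chr11:83593038-83593337 on the minus strand and Cxcl13 at chr5:95956689-95956988 on the plus strand.
Cxcl1: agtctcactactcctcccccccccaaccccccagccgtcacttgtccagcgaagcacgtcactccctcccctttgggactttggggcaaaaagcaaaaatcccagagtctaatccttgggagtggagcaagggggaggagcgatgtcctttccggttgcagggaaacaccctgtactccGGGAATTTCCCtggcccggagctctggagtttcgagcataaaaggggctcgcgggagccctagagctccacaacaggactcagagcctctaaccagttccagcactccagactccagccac
Ccl6: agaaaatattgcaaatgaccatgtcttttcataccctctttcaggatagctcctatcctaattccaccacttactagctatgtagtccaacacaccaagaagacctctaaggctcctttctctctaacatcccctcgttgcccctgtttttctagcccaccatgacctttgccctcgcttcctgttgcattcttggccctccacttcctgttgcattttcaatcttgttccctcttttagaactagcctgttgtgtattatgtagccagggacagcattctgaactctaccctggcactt
Cxcl13: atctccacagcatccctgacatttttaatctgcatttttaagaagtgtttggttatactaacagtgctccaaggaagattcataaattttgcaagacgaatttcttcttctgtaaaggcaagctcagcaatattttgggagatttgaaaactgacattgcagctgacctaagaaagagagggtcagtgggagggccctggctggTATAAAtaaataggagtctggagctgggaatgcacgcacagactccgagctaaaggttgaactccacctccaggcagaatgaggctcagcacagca

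The capitals in Cxcl1 are 2 overlapping NF-κB matches, 1 on each strand from bases 180 and 181 of the window, and those in Cxcl13 are a TATAAA match from base 205. The Ccl6 window held none of the 4 motifs. An NF-κB match was found in 8.46% of all 32851 windows and in 8 of the 27 windows of members. These belong to 8 of the 24 members with a window (Ccl1, Ccl9, Ccl20, Ccl27a, Cxcl1, Cxcl2, Cxcl3 and Cxcl10). Of the 5 of these members that were tested, Cxcl1 alone rose in HFD-MTX50 against HFD.

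The second set holds the 3 ligands that were higher in both HFD and LFD-MTX50 than in LFD livers and whose methotrexate effects differed between the diets. They are Cxcl15 at chr5:90794284-90794583, Ccl8 at chr11:82114935-82115234 and Ccl12 at chr11:82101595-82101894, all on the plus strand.
Cxcl15: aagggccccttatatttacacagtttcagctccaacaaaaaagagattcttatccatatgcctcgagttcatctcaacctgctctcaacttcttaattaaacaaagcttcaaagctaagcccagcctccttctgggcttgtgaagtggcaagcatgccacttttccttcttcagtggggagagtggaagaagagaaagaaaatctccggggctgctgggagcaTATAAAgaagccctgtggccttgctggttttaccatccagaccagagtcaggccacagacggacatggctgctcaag
Ccl8: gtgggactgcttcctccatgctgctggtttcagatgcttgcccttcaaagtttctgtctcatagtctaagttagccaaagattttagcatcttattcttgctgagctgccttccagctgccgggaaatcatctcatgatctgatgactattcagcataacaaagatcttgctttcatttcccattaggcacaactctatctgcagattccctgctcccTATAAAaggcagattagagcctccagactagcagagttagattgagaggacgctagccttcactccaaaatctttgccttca
Ccl12: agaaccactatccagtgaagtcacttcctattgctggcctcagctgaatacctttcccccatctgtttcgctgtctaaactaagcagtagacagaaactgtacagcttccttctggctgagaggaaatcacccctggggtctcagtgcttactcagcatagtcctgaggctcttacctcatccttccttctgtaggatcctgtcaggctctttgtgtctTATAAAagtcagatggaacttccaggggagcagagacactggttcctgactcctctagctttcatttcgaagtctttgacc

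All 3 windows held a TATAAA match, from base 224 in Cxcl15, base 219 in Ccl8 and base 220 in Ccl12, and none of the other motifs. A TATAAA match at any position was found in 13.6% of all windows. It was found in 9 of the 27 windows of members, for 9 of the 24 members with a window. GAS matches occurred in 8.3% of all windows and in Ccl17 and Cxcl14, and the response element core in 3.44% and in Ccl19, Cxcl10 and Cxcl14. The Cxcl9 window held TATAAA but neither interferon motif. From the transcript start, the TATAAA match lay at -195 in Cxcl9 and -6 in Cx3cl1, but at -27 in Cxcl15. These are matches of letters in the reference sequence, and binding was not measured.

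Cxcl1, Cxcl2, Cxcl3, Cxcl5 and Cxcl15 bear the ELR motif and act on neutrophils, mainly through CXCR2. Cxcl1 was at -0.67, -1.25, -1.44 and -1.70 in the LFD mice and at -1.30, -0.93, -1.23 and -0.99 in the HFD mice. After methotrexate it was at 1.67, -0.15, -0.71, 0.20 and 0.90 in LFD-MTX50 and at 2.00, 0.33, 0.26, -0.10 and 3.19 in HFD-MTX50 mice. Every HFD-MTX50 mouse lay above every HFD mouse, and HFD-MTX50 mice 5 and 1 were the highest, whereas LFD-MTX50 mouse 3 fell just below the highest LFD mouse. The rise was 2.25 ± 0.57 (SE) in the HFD livers, or 4.74-fold (adjusted p = 0.0243, exact permutation p = 0.0159), and 1.65 ± 0.57 in the LFD livers, or 3.13-fold (adjusted p = 0.0404, exact permutation p = 0.0238). The difference between these effects was 0.60 (adjusted p = 0.597).

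On the shared slide alone, the HFD-MTX50 minus HFD difference of Cxcl1 was 2.27, as large as over all mice (adjusted p = 0.146 with the spread taken from all arrays, 0.248 with slide as a fixed block). The rise in the HFD livers lost its call without HFD mouse 3 (0.0834) or HFD mouse 4 (0.0727). The rise in the LFD livers lost its call when any of LFD mice 2, 3 and 4 was left out, or either of LFD-MTX50 mice 1 and 5 (adjusted p up to 0.0957). Of 7 neutrophil markers tested, limma called 0 in HFD-MTX50 against HFD (4 higher at an unadjusted p below 0.05), while in LFD-MTX50 against LFD Ngp rose (2.49) and Elane fell (-0.56). The mean log2 level of the list spanned -1.86 to -1.69 in LFD, -1.60 to 0.098 in LFD-MTX50, -1.91 to -1.19 in HFD and -1.68 to 2.54 in HFD-MTX50 mice, and their summed linear level spanned 69.1 to 82.6, 51.2 to 58.4, 48.3 to 68.4 and 45.6 to 126 times the 75th percentile in the same order. S100a9, an abundant neutrophil protein, was at -1.45, -0.38, 1.52, 2.93 and 4.94 in HFD-MTX50 mice 1 to 5, lowest in mouse 1 and highest in mouse 5. The part of neutrophils in the Cxcl1 result was not tested.

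Cxcl15 (lungkine), best known from lung epithelium, followed another pattern. It was at -2.74, -3.41, -3.30 and -3.55 in LFD, -1.34, -2.12, -0.97, -2.21 and -0.66 in LFD-MTX50, -2.43, -1.92, -1.65 and -2.01 in HFD, and -2.29, -0.94, -2.08, -2.78 and -2.13 in HFD-MTX50 mice. All LFD-MTX50 and all HFD mice were above all LFD mice, while HFD and HFD-MTX50 mice overlapped. The HFD livers exceeded LFD by 1.25 ± 0.37 (2.37-fold, adjusted p = 0.0216), and LFD-MTX50 exceeded LFD by 1.79 ± 0.35 (3.46-fold, adjusted p = 0.00353, exact permutation p = 0.00794). HFD-MTX50 minus HFD was -0.038, and the effects of methotrexate differed by -1.83 ± 0.49 (adjusted p = 0.0154). The diet call was lost on leaving out any of LFD mice 2 and 4 and HFD mice 3 and 4 (adjusted p up to 0.0731), and the methotrexate call was kept without any single mouse.

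Cxcl5 was at -1.41, -1.84, -1.93 and -2.06 in LFD, -1.71, -2.05, -1.96, -2.40 and -0.61 in LFD-MTX50, -1.34, -1.44, -1.20 and -1.50 in HFD, and -1.33, -0.84, -0.82, -1.10 and -0.92 in HFD-MTX50 mice. LFD-MTX50 mouse 5 was the highest of all 18 mice, so that the treated groups overlapped although the other 4 LFD-MTX50 mice lay below every HFD-MTX50 mouse. HFD-MTX50 exceeded LFD-MTX50 by 0.75 ± 0.24 (1.68-fold, adjusted p = 0.0446, exact permutation p = 0.0556), a call lost in 15 of the 18 leave-one-out fits with adjusted p up to 0.102. Cxcl2 was above background in HFD-MTX50 mouse 1 alone, at -4.45, where the other 17 mice were between -8.78 and -6.72.

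**Figure D3:**
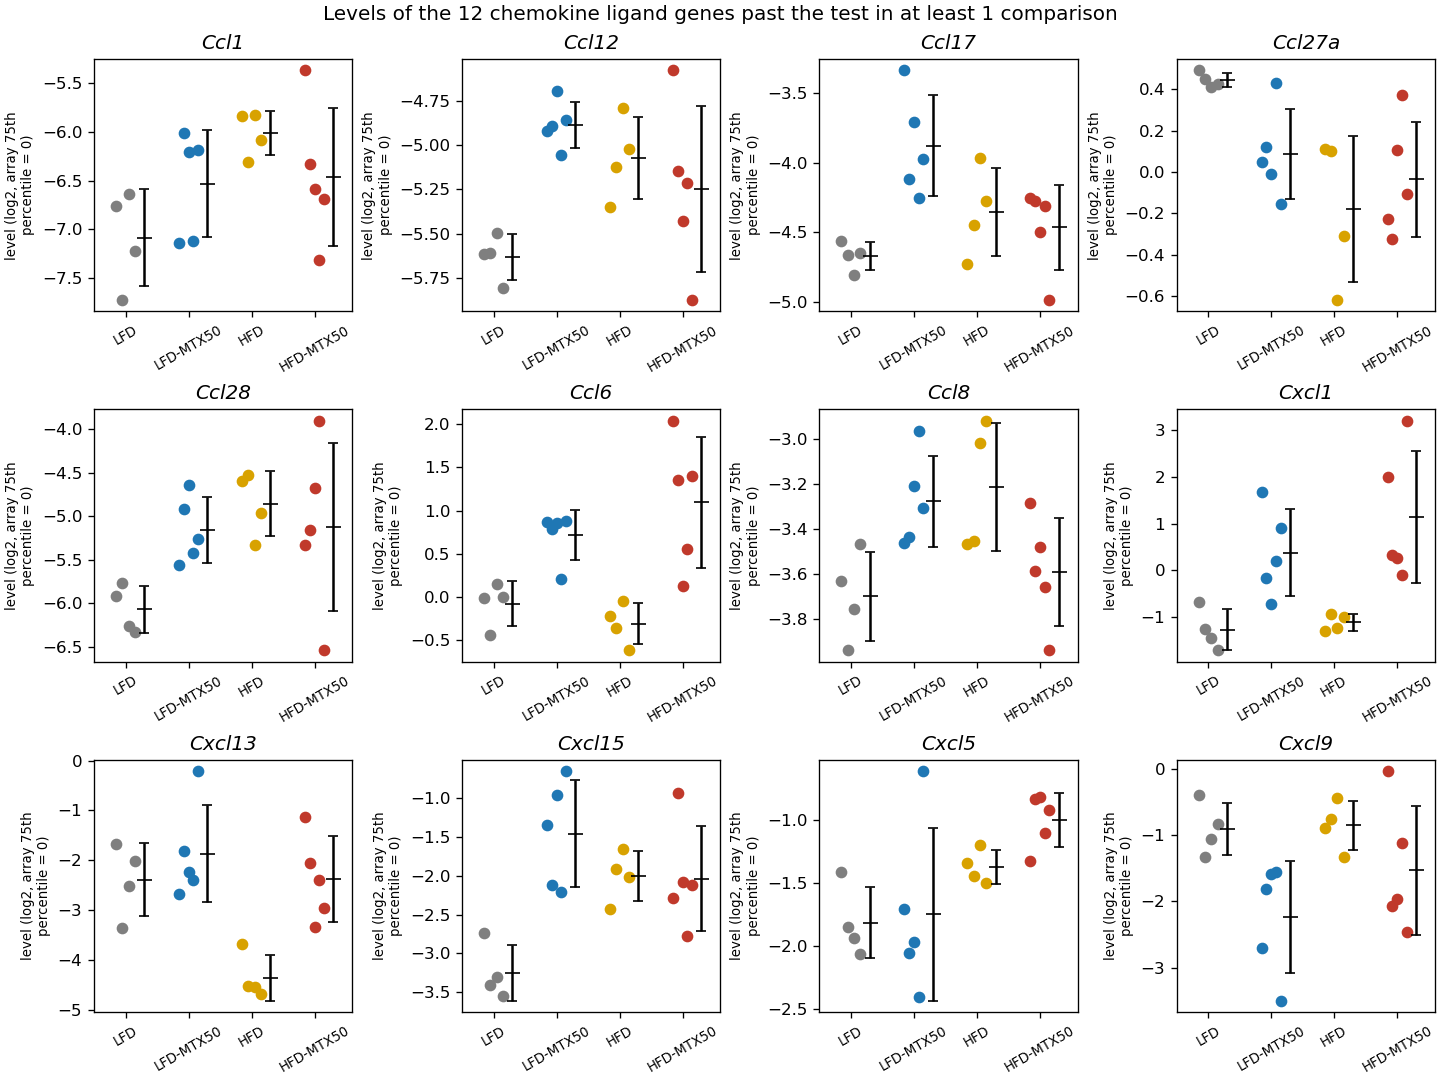
Level of each chemokine ligand with at least 1 called difference in every mouse (log2 processed intensity minus the 75th percentile of the array), by group, with the group mean and SD. For Cxcl1 and Ccl6 all HFD-MTX50 mice lie above all HFD mice, and for Cxcl13 all HFD mice lie below all mice of the other groups.

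Ccl2, Ccl7, Ccl8 and Ccl12 bind CCR2 and recruit monocytes, and in mice Ccl8 also acts on CCR8. Ccl8 was at -3.63, -3.94, -3.76 and -3.47 in LFD, -3.46, -3.44, -3.21, -2.97 and -3.31 in LFD-MTX50, -3.47, -3.45, -3.02 and -2.92 in HFD, and -3.29, -3.59, -3.48, -3.66 and -3.94 in HFD-MTX50 mice. LFD mice were the lowest group beside HFD-MTX50, and the lowest HFD mouse was close to the highest LFD mouse. It rose by 0.49 ± 0.16 with the high fat diet (adjusted p = 0.0366) and by 0.42 ± 0.16 with methotrexate on the low fat diet (adjusted p = 0.0499, exact permutation p = 0.00794). The corresponding value in the HFD livers was -0.38 (adjusted p = 0.111), and the effects of methotrexate differed by -0.80 ± 0.22 (adjusted p = 0.0163).

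Ccl12 (MCP-5) moved in the same way. Its levels were -5.62, -5.61, -5.50 and -5.81 in LFD, -4.92, -4.89, -4.69, -5.05 and -4.86 in LFD-MTX50, -5.35, -5.13, -4.79 and -5.02 in HFD, and -4.58, -5.15, -5.43, -5.21 and -5.88 in HFD-MTX50 mice. All LFD-MTX50 and all HFD mice exceeded all LFD mice, and the HFD-MTX50 mice spread over the ranges of both. The diet difference was 0.56 ± 0.20 (adjusted p = 0.0427), the methotrexate difference on the low fat diet 0.75 ± 0.19 (adjusted p = 0.0103, exact permutation p = 0.00794), and the difference between the methotrexate effects -0.92 ± 0.26 (adjusted p = 0.0191).

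The differences between the methotrexate effects held for Ccl8 and Ccl12 without any single mouse (adjusted p up to 0.0426 and 0.0494). They were smaller and lost with quantile normalization, at -0.48 for Ccl8 (0.0983) and -0.37 for Ccl12 (0.197), and with the normexp background correction in which extreme local backgrounds were set to the median, at -0.38 (0.162) and -0.19 (0.538). The diet and low fat methotrexate calls of both genes were lost there as well, with differences from 0.13 to 0.34. The diet call was lost in 5 of 18 leave-one-out fits for Ccl8 (adjusted p up to 0.123; LFD mice 1, 2 and 3 and HFD mice 3 and 4) and in 9 of 18 for Ccl12 (up to 0.137; any LFD mouse, LFD-MTX50 mice 1 and 2, and HFD mice 2, 3 and 4). The methotrexate call of Ccl8 on the low fat diet was lost in 13 fits (up to 0.15), and that of Ccl12 in none (up to 0.029). The summed linear level of 6 monocyte and macrophage markers was lower in LFD-MTX50 (41.9 to 54.9) than in LFD mice (72.7 to 82.5). It was 53.22 to 75.55 in HFD and 53.91 to 99.05 in HFD-MTX50 mice. The mean log2 level of these markers overlapped between LFD-MTX50 (1.163 to 1.574) and LFD mice (1.288 to 1.849). In LFD-MTX50 against LFD, Cd68 was at -0.94 (adjusted p = 0.0168) and Csf1r at -0.54 (adjusted p = 0.0399). Of 3 adipocyte genes, the summed level was 0.303 to 0.378 in LFD, 0.442 to 0.778 in LFD-MTX50, 0.495 to 1.33 in HFD and 0.431 to 0.802 in HFD-MTX50 mice. Lep rose in HFD (2.30) and in LFD-MTX50 (1.46) against LFD, and Adipoq was at -0.04 in the first (adjusted p = 0.901) and rose by 0.68 in the second. The part of these cell types in the Cxcl15, Ccl8 and Ccl12 results was not tested.

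No call was made for Ccl2 or Ccl7, whose values are given because 1 mouse stood apart. Ccl2 (MCP-1) was at -1.34, -1.77, -1.58 and -1.76 in LFD, -1.55, -1.56, -1.74, -1.38 and -2.02 in LFD-MTX50, -1.69, -1.17, -0.84 and -1.45 in HFD, and 0.61, -1.11, -1.66, -1.26 and -1.99 in HFD-MTX50 mice. Ccl7 was at -2.08 in HFD-MTX50 mouse 1 and between -8.57 and -5.25 in the other 17 mice, many of them not above background. HFD-MTX50 mouse 1 was thus the highest mouse for both, and the other 4 mice of its group fell within the range of the remaining groups for Ccl2.

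Ccl3, Ccl4, Ccl5, Ccl6 and Ccl9 are inflammatory CC ligands that draw myeloid cells and, in part, T cells. Ccl6, a mouse CCR1 ligand made by myeloid cells, was the one of the 5 with a call in the 4-group limma model. It was at -0.011, -0.44, 0.15 and 0.0058 in LFD, 0.86, 0.79, 0.86, 0.21 and 0.88 in LFD-MTX50, -0.22, -0.36, -0.049 and -0.62 in HFD, and 2.04, 1.36, 0.12, 0.56 and 1.40 in HFD-MTX50 mice. On each diet every treated mouse lay above every untreated mouse, most narrowly for LFD-MTX50 mouse 4 and HFD-MTX50 mouse 3. The rise was 1.40 ± 0.29 in the HFD livers (2.65-fold, adjusted p = 0.0118, exact permutation p = 0.0159) and 0.79 ± 0.29 in the LFD livers (1.74-fold, adjusted p = 0.0484, exact permutation p = 0.0159), and these effects differed by 0.61 (adjusted p = 0.27).

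Within the shared slide the HFD-MTX50 minus HFD difference of Ccl6 was 2.03 (adjusted p = 0.00769 with the spread taken from all arrays, 0.0753 with slide as a fixed block). The call in the HFD livers was lost only without HFD mouse 4 (adjusted p = 0.0537) among the leave-one-out fits, whereas that in the LFD livers was lost in 13 of 18 (adjusted p up to 0.136). The summed linear level of 5 Kupffer cell markers spanned 7.66 to 13.7 in LFD, 9.51 to 18.9 in LFD-MTX50, 9.04 to 12.9 in HFD and 10.8 to 27.2 in HFD-MTX50 mice, and the scavenger receptor Marco was 1.17 higher in HFD-MTX50 than HFD livers (adjusted p = 0.0616). The part of Kupffer cells in the Ccl6 result was not tested.

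Ccl9 was at 1.51, 1.40, 1.90 and 1.43 in LFD, 2.21, 1.68, 1.31, 0.83 and 1.85 in LFD-MTX50, 1.27, 0.89, 1.22 and 0.66 in HFD, and 1.92, 1.69, 1.36, 1.30 and 1.17 in HFD-MTX50 mice. All HFD mice were below all LFD mice, but the difference of -0.55 ± 0.25 had an adjusted p of 0.0974 (exact permutation p = 0.0286, the smallest that 4 against 4 mice allow) and passed with these 2 groups fitted alone (0.0311). In HFD-MTX50 against HFD it was 0.48 (adjusted p = 0.17).

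Ccl3 and Ccl4, the macrophage inflammatory proteins 1α and 1β, were again highest in HFD-MTX50 mouse 1, at -1.45 and -1.38. The other mice lay between -5.96 and -3.89 for Ccl3. For Ccl4 they lay between -6.08 and -3.42. HFD-MTX50 minus HFD was 1.22 ± 0.64 for Ccl3 (adjusted p = 0.2) and 0.71 for Ccl4 (adjusted p = 0.381). Ccl4 passed between the treated groups with quantile normalization (1.59, adjusted p = 0.0474). Ccl5, which lymphocytes release in abundance, stayed between -1.96 and -0.92 in all 18 mice, with no call.

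Cxcl9, Cxcl10 and Cxcl11 are induced by interferons and draw T and NK cells through CXCR3, and the array named probes for Cxcl9 and Cxcl10. Cxcl9 was at -0.39, -1.33, -1.05 and -0.84 in LFD, -2.71, -1.82, -1.58, -1.56 and -3.50 in LFD-MTX50, -0.88, -0.75, -0.44 and -1.33 in HFD, and -0.03, -2.07, -1.97, -1.12 and -2.46 in HFD-MTX50 mice. All LFD-MTX50 mice lay below all LFD mice, whereas HFD and HFD-MTX50 mice overlapped. The fall was -1.33 ± 0.45 (2.52-fold lower, adjusted p = 0.0375, exact permutation p = 0.0238). It was lost on leaving out any LFD mouse or either of LFD-MTX50 mice 1 and 5 (adjusted p up to 0.0954), and the second probe of Cxcl9 gave -0.43 (adjusted p = 0.344).

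Other interferon-γ response genes fell in the same comparison. Of 7 tested, 4 fell and none rose in LFD-MTX50 against LFD, where 10.5% of all genes fell, with a median of -0.48 against 0.10 over all genes. They were the guanylate-binding proteins Gbp6 (-1.91, adjusted p = 0.00196), Gbp2 (-1.04) and Gbp3 (-0.96) and the MHC class II transactivator Ciita (-0.48). In HFD-MTX50 against HFD limma called 0 of the 7, also 0 at an unadjusted p below 0.05. The methotrexate effects differed between the diets for Gbp2, Gbp3 and Gbp6, each higher in the HFD livers, beside 8.66% of all genes in that direction.

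Cxcl10 (IP-10) had no call. It was at -6.27, -0.38, -0.14 and -0.34 in LFD, -0.999, -1.44, -1.96, -1.52 and -3.82 in LFD-MTX50, -0.086, 0.14, -0.12 and -1.09 in HFD, and 2.09, 1.03, -1.15, 0.0028 and -1.61 in HFD-MTX50 mice. LFD mouse 1 stood far below all others, and without it every LFD-MTX50 mouse was below every LFD mouse. Several values rested on that mouse. Without it, LFD-MTX50 minus LFD was -1.66 (adjusted p = 0.0988) rather than -0.16 (0.919), HFD minus LFD was -0.0019 rather than 1.49, and HFD-MTX50 against LFD-MTX50 passed at 2.02 (adjusted p = 0.041) rather than missing the threshold (0.164).

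Ccl11, Ccl24 and Ccl26 are eotaxins that bind CCR3 on eosinophils, and Ccl24 was the one tested. It was at -3.35, -3.98, -3.36 and -3.30 in LFD, -2.67, -2.35, -2.54, -2.60 and -3.50 in LFD-MTX50, -3.12, -3.42, -3.52 and -3.67 in HFD, and -1.64, -3.06, -3.19, -3.03 and -2.87 in HFD-MTX50 mice. LFD-MTX50 mouse 5 lay among the LFD mice and the other 4 above them. LFD-MTX50 minus LFD was 0.76 (adjusted p = 0.0528) and became a call at 0.96 on leaving out LFD-MTX50 mouse 5 (0.0199) or at 0.76 on leaving out HFD-MTX50 mouse 1 (0.0127).

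Ccl17, Ccl22, Ccl20 and Ccl1 act on CCR4, CCR6 and CCR8 of regulatory, helper and memory T cells. Ccl17 (TARC), which dendritic cells release, was at -4.56, -4.67, -4.81 and -4.65 in LFD, -3.33, -4.12, -3.71, -4.25 and -3.97 in LFD-MTX50, -4.73, -4.45, -3.97 and -4.28 in HFD, and -4.25, -4.28, -4.50, -4.31 and -4.99 in HFD-MTX50 mice. LFD-MTX50 mice were above all LFD mice and, except that mouse 4 was level with HFD-MTX50 mouse 1, above the treated HFD mice. Its rise with methotrexate on the low fat diet was 0.79 ± 0.19 (adjusted p = 0.00903, exact permutation p = 0.0159), and HFD-MTX50 minus LFD-MTX50 was -0.59 ± 0.18 (adjusted p = 0.0374, exact permutation p = 0.00794). The methotrexate effects differed by -0.90 ± 0.27 (adjusted p = 0.0238).

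The rise of Ccl17 on the low fat diet held without any single mouse (adjusted p up to 0.0287). The difference between the effects was lost without HFD mouse 3 (0.061) or HFD mouse 4 (0.0509), with quantile normalization (-0.49, 0.122) and with that normexp correction (-0.37, 0.202), and that between treated groups on leaving out LFD-MTX50 mice 1 and 3 or HFD-MTX50 mice 3, 4 and 5, each alone (up to 0.0891). The summed level of 5 dendritic cell markers was 1.45 to 1.69 in LFD, 2.21 to 2.70 in LFD-MTX50, 1.84 to 2.20 in HFD and 1.60 to 2.82 in HFD-MTX50 mice. The mean log2 level of these markers overlapped between LFD (-3.498 to -3.206) and LFD-MTX50 mice (-3.312 to -2.462). The part of dendritic cells in the Ccl17 result was not tested.

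Ccl1 was at -6.76, -7.72, -6.63 and -7.22 in LFD, -7.14, -6.01, -6.20, -7.12 and -6.18 in LFD-MTX50, -5.83, -6.30, -5.82 and -6.08 in HFD, and -5.37, -6.33, -6.58, -7.31 and -6.69 in HFD-MTX50 mice. All HFD mice were above all LFD mice, of which 1 was above background. The size of the difference is uncertain so close to background. It was 1.07 ± 0.36 (adjusted p = 0.0345, exact permutation p = 0.0286), and the call was lost on leaving out any of LFD mice 2 and 4 and HFD mice 1, 3 and 4 (adjusted p up to 0.108). It was 0.66 with quantile normalization (adjusted p = 0.181) and 0.053 with the normexp background correction in which extreme local backgrounds were set to the median (0.856).

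Homeostatic ligands guide lymphocytes through resting tissue. Of 8 on the array, all tested, Ccl28 rose and Cxcl13 and Ccl27a fell in HFD against LFD, where 18% of all genes rose and 10.4% fell. Cxcl13 rose in HFD-MTX50 against HFD, where 4.83% of all genes rose. By limma, on the brightest probe of each gene, 0 of the 8 passed in the other 3 comparisons. Unadjusted p values below 0.05 on these probes numbered 5 (3 higher, 2 lower) in LFD-MTX50 against LFD, 0 between the treated groups and 2 (1 higher, 1 lower) for the difference between the effects. Cxcl13, the B cell attractant that binds CXCR5, was at -1.67, -3.36, -2.52 and -2.02 in LFD, -2.68, -1.81, -2.23, -2.40 and -0.21 in LFD-MTX50, -3.69, -4.53, -4.54 and -4.70 in HFD, and -1.13, -2.06, -3.35, -2.39 and -2.96 in HFD-MTX50 mice. Every HFD mouse lay below every mouse of the other 3 groups, most narrowly HFD mouse 1 below LFD mouse 2 and HFD-MTX50 mouse 3.

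Cxcl13 fell by 1.97 ± 0.52 on the log2 scale with the high fat diet (3.93-fold lower, adjusted p = 0.0138, exact permutation p = 0.0286) and rose by 1.99 ± 0.50 with methotrexate in the HFD livers (3.97-fold, adjusted p = 0.0227, exact permutation p = 0.0159). The HFD mice enter both comparisons. In the LFD livers methotrexate gave 0.52 (adjusted p = 0.432), and the difference between the effects was 1.46 ± 0.70 (adjusted p = 0.123), which passed without LFD-MTX50 mouse 5 (1.88, 0.028). The diet call held without any single mouse (adjusted p up to 0.0456), and the methotrexate call was lost without HFD mouse 2, 3 or 4 (up to 0.0816). Within the shared slide the methotrexate difference was 3.03 (adjusted p = 0.0208 with the spread taken from all arrays, 0.0605 with slide as a fixed block), and with the replicate block it was 1.85 (0.0509). The summed level of 6 B and plasma cell markers was 0.943 to 1.22 in LFD, 0.960 to 1.53 in LFD-MTX50, 1.16 to 1.33 in HFD and 0.847 to 1.24 in HFD-MTX50 mice. The part of these cells in the Cxcl13 result was not tested.

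Ccl27a, a skin-associated CCR10 ligand, was at 0.49, 0.45, 0.41 and 0.43 in LFD, 0.049, 0.12, -0.0079, 0.43 and -0.16 in LFD-MTX50, 0.11, 0.10, -0.62 and -0.31 in HFD, and -0.23, -0.33, 0.10, 0.37 and -0.11 in HFD-MTX50 mice. LFD mice were tightly grouped and above all HFD mice. The difference was -0.62 ± 0.17 (adjusted p = 0.0169), and a second probe gave -0.66 (adjusted p = 0.022), but the third probe, a dim one, gave 0.55 (adjusted p = 0.0929). The call was lost without HFD mouse 3 (0.0694) or HFD mouse 4 (0.0552), and near-identical gene copies such as Ccl27b make the assignment of these probes uncertain.

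Ccl28, a mucosal ligand of CCR10 and CCR3, was at -5.92, -5.77, -6.26 and -6.33 in LFD, -5.56, -4.91, -4.64, -5.42 and -5.26 in LFD-MTX50, -4.60, -4.53, -5.33 and -4.96 in HFD, and -5.33, -5.15, -4.67, -3.90 and -6.54 in HFD-MTX50 mice. All HFD and all LFD-MTX50 mice were above all LFD mice, and HFD-MTX50 mouse 5 was the lowest of the 18. The diet difference was 1.22 ± 0.39 (adjusted p = 0.0299; lost on leaving out any of LFD mice 3 and 4 and HFD mice 1, 2 and 4, up to 0.0727). It was 0.86 with quantile normalization (0.12) and 0.37 with the normexp correction that limits local backgrounds (0.193). LFD-MTX50 minus LFD was 0.91 (adjusted p = 0.0709, exact permutation p = 0.00794).

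Cxcl12, which binds CXCR4 and retains haematopoietic cells, was at 3.77, 3.75, 3.56 and 3.94 in LFD, 3.93, 3.65, 3.98, 3.73 and 3.79 in LFD-MTX50, 3.59, 3.57, 3.21 and 3.31 in HFD, and 3.44, 3.30, 3.69, 3.75 and 3.70 in HFD-MTX50 mice. HFD mice 1 and 2 lay just above the lowest LFD mouse, and HFD mice 3 and 4 below all LFD mice. The diet difference was -0.33 ± 0.13 (adjusted p = 0.0585), and the second probe gave -0.47 (adjusted p = 0.0454).

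Ccl19, which guides T cells and dendritic cells through CCR7, was at 0.47, 0.38, 0.29 and 0.29 in LFD, 0.77, 0.50, 0.99, 0.60 and 0.80 in LFD-MTX50, 0.43, 0.39, 0.56 and 0.65 in HFD, and 0.57, 1.04, 0.56, 0.031 and 0.35 in HFD-MTX50 mice. All LFD-MTX50 mice exceeded all LFD mice. The difference was 0.38 ± 0.15 on the brightest probe (adjusted p = 0.0738, exact permutation p = 0.0159), and the other probes gave 0.47 (adjusted p = 0.00815) and 0.67 (adjusted p = 0.0172). The probe that gave 0.47 also passed by limma in HFD against LFD (0.33, adjusted p = 0.0443) and between the treated groups (-0.35, 0.0335). It passed for the difference between the effects as well (-0.68, 0.00866). The brightest probe and the probe that gave 0.67 passed in none of these. Near-identical copies of Ccl19 in the mouse genome leave the source of these signals uncertain.

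Ccl25, Cxcl14 and Cxcl17 of the homeostatic group had no call in the 4-group limma model. Cxcl17 was 0.48 higher in HFD than LFD livers (adjusted p = 0.192), which passed by the methods' t-test (0.0138) and with the 2 groups alone (0.00821). Ccl25 lay between -1.70 and -0.86 in all mice, and its LFD-MTX50 minus LFD difference of -0.35 (adjusted p = 0.0737) passed by that t-test (0.0293) and in other settings. Cxcl14 was at -0.26 in HFD-MTX50 mouse 5, with the other 17 mice between -3.82 and -1.71. The transmembrane ligand Cxcl16 stayed between -1.70 and -1.33 in all 18 mice, its largest difference being -0.14 in LFD-MTX50 against LFD (adjusted p = 0.219). Neither Cx3cl1 (fractalkine) nor Xcl1 (lymphotactin) passed by limma in any of the 5 comparisons, and no unadjusted p of Cxcl16, Cx3cl1 or Xcl1 was below 0.05. Without LFD-MTX50 mouse 1, Cx3cl1 passed between the treated groups (-0.80, adjusted p = 0.0356) and for the difference between the effects (-1.18, 0.0216).

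Single mice set part of the spread. HFD-MTX50 mouse 1 had the highest level of all 18 mice for 10 of the 28 tested ligands, namely Ccl1, Ccl2, Ccl3, Ccl4, Ccl6, Ccl7, Ccl12, Ccl24, Cxcl9 and Cxcl10. The same liver had the highest summed linear level of Kupffer cell markers (27.2) and the lowest of hepatocyte (549) and T cell markers (69.2) of the 18. A linear sum follows the brightest markers of a list. The mean log2 level of the T cell markers in this liver was -1.19, inside the range of the other mice (-1.463 to -0.7565). The part of these cell types in its ligand levels was not tested. LFD-MTX50 mouse 5 was highest for 4 ligands (Cxcl5, Cxcl13, Cxcl15 and Cxcl17) and lowest for 6. HFD-MTX50 mouse 5 was highest for Ccl25, Cxcl1 and Cxcl14 and lowest for 5. Without HFD-MTX50 mouse 1 all 3 calls in HFD-MTX50 against HFD remained.

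**Figure D4:**
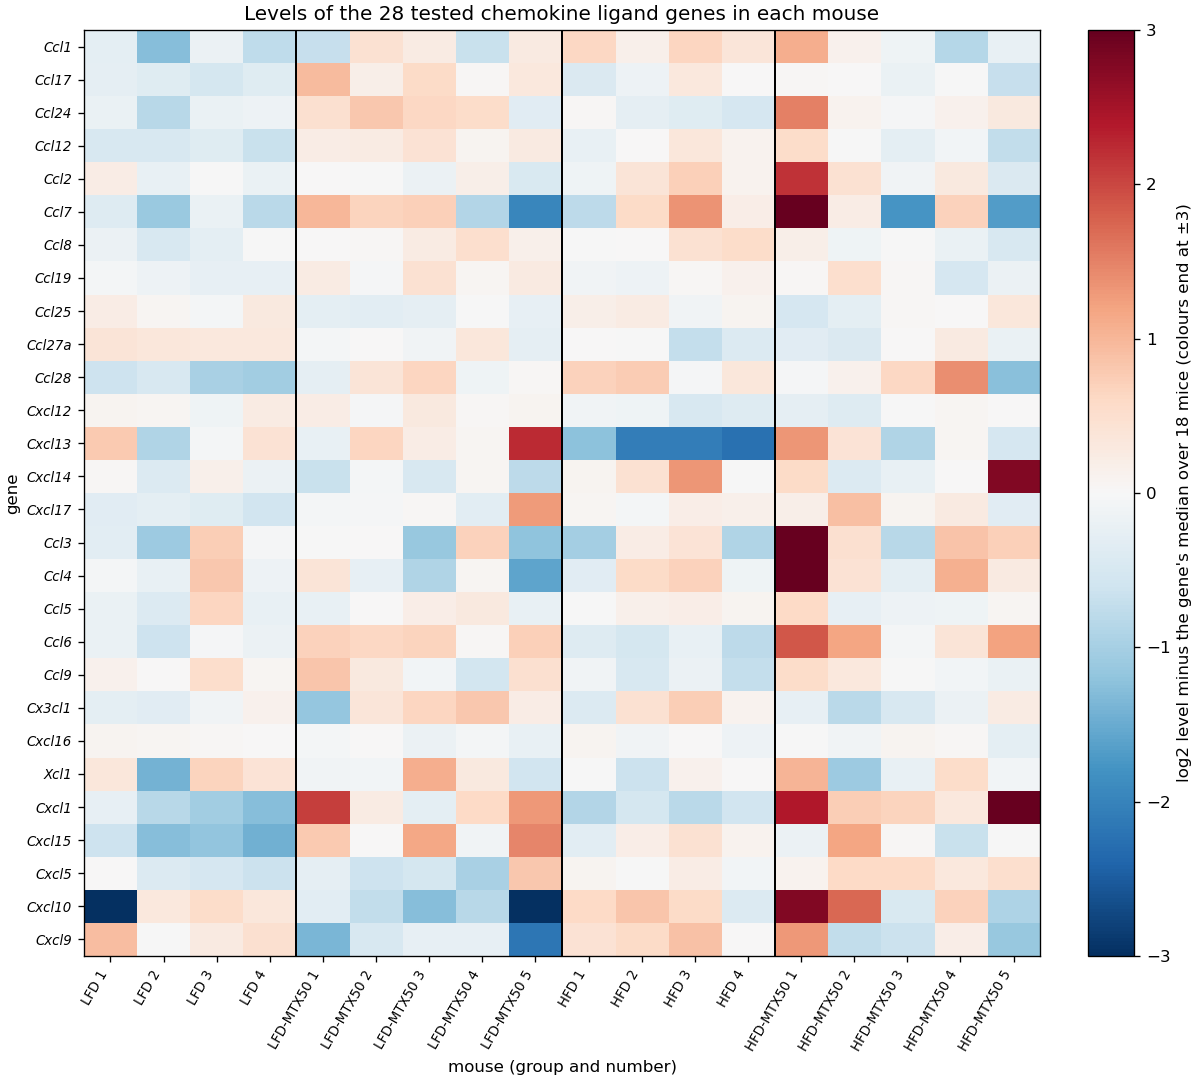
Level of each tested chemokine ligand in each of the 18 mice, as a colour for the log2 level minus the median of that ligand over all 18 mice (colours end at ±3), with mice in columns by group. HFD-MTX50 mouse 1 is high across 10 ligands, while LFD mouse 1 is low for Cxcl10.

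The receptors that read these ligands were examined beside them. Of 18 chemokine receptors on the array, 16 were tested, and 4 rose in HFD against LFD livers, where 18% of all genes rose. They were Cx3cr1 (0.57), the CXCL13 receptor Cxcr5 (0.61), the CCL17 receptor Ccr4 (0.58) and the CCL20 receptor Ccr6 (0.53). With methotrexate on the low fat diet 5 rose and 1 fell, beside 17.6% and 10.5% of all genes, among them the CCL1 receptor Ccr8 (1.57), the neutrophil receptor Cxcr2 (1.09), Ccr4 (0.79) and the CCL19 receptor Ccr7 (-0.78). In HFD-MTX50 against HFD limma called 0 receptors (1 lower at an unadjusted p below 0.05). The methotrexate effects differed for Ccr4 (-1.03), Ccr6 (-0.83) and Cxcr5 (-0.74), each lower in the HFD livers (3 of 16 beside 18.1% of all genes). The median over the tested receptors was 0.43 in HFD against LFD, -0.17 in HFD-MTX50 against HFD and 0.19 in LFD-MTX50 against LFD.

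Atypical receptors do not signal through G proteins, and some of them bind and remove chemokines. Of 5 tested, Ackr1 rose in HFD (0.59) and in LFD-MTX50 (0.41) against LFD livers, where 18% and 17.6% of all genes rose. Ackr3, which removes CXCL12, fell in HFD-MTX50 against HFD (-0.98), beside 6.13% of all genes. Ackr4, which removes CCL19 and CCL25, fell in LFD-MTX50 against LFD (-0.78), beside 10.5% of all genes. Among 10 cytokines that can induce chemokines, Tnf (0.62) and Ifnb1 (0.84) rose in HFD against LFD, where 18% of all genes rose. Ifnb1 fell in HFD-MTX50 against HFD (-0.81), where 6.13% of all genes fell. Il17a rose in LFD-MTX50 against LFD (0.60), where 17.6% of all genes rose.

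Of 9 NF-κB feedback and adhesion genes tested, 4 rose in LFD-MTX50 against LFD, where 17.6% of all genes rose. They were the adhesion molecule Vcam1 (0.86), the NF-κB inhibitor Nfkbia (0.71), Nfkbiz (0.63) and Nfkb2 (0.46). Vcam1 also rose in HFD-MTX50 against HFD (0.95), as the only gene of this list that passed there, where 4.83% of all genes rose. Nfkb2 rose in HFD against LFD, where 18% of all genes rose. Between the treated groups Relb was higher and Nfkbiz and Nfkbia lower in HFD-MTX50, beside 7.37% of all genes higher and 8.75% lower. The platelet chemokines Pf4 and Ppbp, which the naming rule leaves out, passed in none of the 5 comparisons by limma, with 1 of them higher at an unadjusted p below 0.05 after methotrexate on each diet.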

How the data were processed

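Liver RNA of 18 mice was hybridised to one-colour Agilent mouse arrays (1 array for each mouse) and scanned, and the authors deposited the background-subtracted, spatially detrended spot intensity of each array with its background and flag columns, made with Agilent Feature Extraction 10.7.3.1 per the file headers, together with a table of the series. Each value in that table was within 0.6% of the background-subtracted intensity of the scanner files. The labels and the methods name different RNA and labelling kits. Per the methods, mice were housed individually from before the start of treatment. The p-values measure the spread between these mice.

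From these intensities log2 was taken, with no pseudocount. The 75th percentile over all non-control spots of each array (1203 to 2263 intensity units) was subtracted. Control spots and outlier spots (124 to 294 per array) were then left out, and the log2 values of the spots of 1 probe were averaged. Of 39429 probes, 35738 (90.6%) were well above background on at least 4 arrays and were kept, and 0 were saturated. Probes were named through the accession in the files and the RefSeq gene table (28025 named), and a gene was read on its kept probe with the highest mean. The array was designed on another build than GRCm38.p6, so no probe position is given. limma 3.58.1 in R 4.3.3 (lmFit and eBayes, 1 model with 4 groups) gave differences, standard errors and Benjamini-Hochberg adjusted p-values over all kept probes, called at 0.05, and was tested on simulated data first. Exact two-sided permutation p-values compare 2 group means. The smallest possible value is 0.0286 for 4 against 4 mice and 0.00794 for 4 against 5 or 5 against 5. The methods' t-test and 2-fold rule, other background corrections, normalizations, filters, slide blocks and the omission of each mouse were tried as alternatives. The mean of the spot signal was absent from the columns used, so its median served for the normexp correction. Replicate numbers did not pair mice: deviations of same-numbered mice correlated between -0.314 and 0.255 (7 of 25 pairs over 0.1). Ligands were described mouse by mouse if called in any comparison or among the 6 brightest. Ccl2, Ccl3, Ccl4, Ccl7, Ccl24, Cxcl2, Cxcl10 and Cxcl14 were added after their values were seen. The members and lists were chosen with earlier results of these data known. Figures were drawn with matplotlib 3.10.9 in Python 3.11.15.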

Additional observations from a re-analysis of the deposited data

Results flagged for a closer look

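For each tested ligand and group, the gap between the most extreme mouse and its neighbour was divided by the range of the group. By chance about 1 in 20 groups passes this test, and 10 of 112 did. In the LFD mice the ratio was 0.961 for Cxcl10 (mouse 1, lowest), 0.918 for Ccl24 (mouse 2, lowest), 0.844 for Xcl1 (mouse 2, lowest) and 0.832 for Ccl4 (mouse 3, highest). In the LFD-MTX50 mice it was 0.865 for Ccl6 and 0.758 for Ccl25 (mouse 4, lowest and highest) and 0.721 for Ccl24 and 0.789 for Cxcl17 (mouse 5, lowest and highest). HFD mouse 1 was apart as the highest for Cxcl13 (0.834), and HFD-MTX50 mouse 1 for Ccl24 (0.79).

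The effect of methotrexate differed between the diets by limma for Cxcl15 (-1.83), Ccl12 (-0.92), Ccl17 (-0.90) and Ccl8 (-0.80), as HFD effect minus LFD effect on the log2 scale. Each rose in LFD-MTX50 against LFD, and none passed in HFD-MTX50 against HFD.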

How the results depend on the processing

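Counts of called ligands were 7 for HFD against LFD, 3 for HFD-MTX50 against HFD, 7 for LFD-MTX50 against LFD, 2 between the treated groups and 4 for the difference between the effects, and are followed here in that order. With the planned normexp correction they were 0, 0, 1, 0 and 0. On 10 arrays this fit met spots whose local background was over 10 times the median. With those set to the median, an alternative added after seeing the data, they were 2, 3, 4, 0 and 1. Ccl17 between the treated groups reversed under the planned correction (0.60, adjusted p = 0.556). Quantile normalization gave 3 for HFD against LFD, 3 for LFD-MTX50 against LFD and 1 for the difference, and moved the median of all kept probes by -0.105, -0.136 and 0.157. Slide as a random block gave 0 for all but HFD-MTX50 against HFD, which kept 3 (unadjusted p below 0.05 in 3 higher and 2 lower for HFD against LFD, 4 and 1 for LFD-MTX50 against LFD, 1 and 1 between the treated groups and 0 and 4 for the difference), and slide as a fixed block gave 0 there, with 5 higher and 2 lower at an unadjusted p below 0.05. Over all kept probes the random block still called 1.89%, 9.86%, 1.7%, 0.0867% and 6.82%. Fits with only the groups compared gave 0 for HFD-MTX50 against HFD, 12 for LFD-MTX50 against LFD and 0 between the treated groups. The methods' t-test with Benjamini-Hochberg adjustment gave 0 for HFD-MTX50 against HFD and 0 between the treated groups. At the methods' own thresholds it kept 2 of the 3 ligands called in HFD-MTX50 against HFD. It gave 4 there for HFD against LFD, 2 for LFD-MTX50 against LFD and 0 between the treated groups. That last count was 1 with the series table and 1 without the filter on dim probes. Leaving out 1 mouse gave 1 to 8, 0 to 3, 3 to 9, 0 to 3 and 3 to 5. The lowest counts came without HFD mouse 4 in HFD against LFD (1) and in HFD-MTX50 against HFD (0), and without LFD mouse 2 or 3 or LFD-MTX50 mouse 1 in LFD-MTX50 against LFD (3). The replicate block gave 6, 2, 7, 2 and 4, and the shared slide alone 2 of the 3 ligands in HFD-MTX50 against HFD. The cause of these changes was not tested. The number of arrays limits the precision, and levels of Ccl1, Ccl7 and Xcl1 near background are the least certain.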
